A study of Mus musculus with 8 samples.

Results

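CpG-dense sites with low methylation were followed in hepatocytes of mid-aged and young mice, and they comprised 321237 of the 874644 CpGs measured on chromosomes 1 to 19 (36.7%). A CpG was kept when all 8 mice covered it with 5 or more reads, and it counted as dense when 10 or more other CpGs with a read lay within 100 bases. The members were then selected on their own measured values, as dense CpGs whose methylation averaged under 10% over all 8 mice. They made up 88.8% of the 361866 dense CpGs. The low level itself is therefore the rule and not a finding, and the rule limits any difference between the groups at a member CpG to less than 20 percentage points. The data are reduced representation bisulfite sequencing (RRBS), in which DNA is cut with *Msp*I at CCGG, treated with bisulfite, which converts unmethylated cytosine, and sequenced. Hepatocytes, enriched by liver perfusion, came from 4 mid-aged mice of 40 weeks and 4 young mice of 10 weeks, all of them female C57Bl6/J animals on a control diet, with 1 library per mouse. The labels give no transgene or drug, and the comparison addresses the effect of age on hepatocyte DNA methylation.

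In mammals most CpGs carry a methyl group, which is copied to the new strand after replication and is associated with silent DNA. CpG islands, the dense clusters of CpGs that cover many promoters, usually stay free of it. Islands of genes that every cell uses are open and transcribed, whereas islands of many developmental regulators are held silent in differentiated cells by Polycomb complexes without DNA methylation. In several tissues islands of the latter kind are known to gain some methylation with age. A percentage from bulk cells cannot tell a few fully methylated cells from a low level in all cells.

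The sequences below show what such DNA looks like and carry the results described further on. All are the plus strand of GRCm38 (mm10), 5′ to 3′, with the CpGs of the set in capitals. The stretch in the only exon of *Cebpb* is the one with the most member CpGs. Those of *Neto2*, *Fezf1*, *Igf2bp1* and *Lca5l* were higher in mid-aged mice. The windows of 62 bases around *Ptk7*, *Foxf2* and *Zfp36l2* hold, at base 31, single CpGs that differed between the groups.
Cebpb chr2:167689129-167689428: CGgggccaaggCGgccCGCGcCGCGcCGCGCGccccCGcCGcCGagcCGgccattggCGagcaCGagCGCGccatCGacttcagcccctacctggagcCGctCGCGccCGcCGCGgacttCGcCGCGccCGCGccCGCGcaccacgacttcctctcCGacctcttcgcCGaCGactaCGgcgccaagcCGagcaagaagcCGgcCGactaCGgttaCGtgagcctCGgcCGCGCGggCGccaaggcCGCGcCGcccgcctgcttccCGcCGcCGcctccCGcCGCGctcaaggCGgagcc
Neto2 chr8:85700342-85700641: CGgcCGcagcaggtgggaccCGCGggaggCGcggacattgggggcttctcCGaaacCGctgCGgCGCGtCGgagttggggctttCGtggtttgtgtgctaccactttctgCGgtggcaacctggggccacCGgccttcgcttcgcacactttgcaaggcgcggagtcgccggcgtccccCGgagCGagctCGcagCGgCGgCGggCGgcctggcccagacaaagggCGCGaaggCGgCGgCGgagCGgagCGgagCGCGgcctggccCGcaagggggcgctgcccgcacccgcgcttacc
Fezf1 chr6:23247559-23247858: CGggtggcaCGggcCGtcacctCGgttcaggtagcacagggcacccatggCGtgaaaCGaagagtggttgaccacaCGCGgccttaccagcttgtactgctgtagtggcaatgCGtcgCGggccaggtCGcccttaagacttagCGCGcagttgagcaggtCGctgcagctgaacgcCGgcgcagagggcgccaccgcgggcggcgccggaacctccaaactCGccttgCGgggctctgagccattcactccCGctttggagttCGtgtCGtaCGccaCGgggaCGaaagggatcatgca
Igf2bp1 chr11:96004637-96004936: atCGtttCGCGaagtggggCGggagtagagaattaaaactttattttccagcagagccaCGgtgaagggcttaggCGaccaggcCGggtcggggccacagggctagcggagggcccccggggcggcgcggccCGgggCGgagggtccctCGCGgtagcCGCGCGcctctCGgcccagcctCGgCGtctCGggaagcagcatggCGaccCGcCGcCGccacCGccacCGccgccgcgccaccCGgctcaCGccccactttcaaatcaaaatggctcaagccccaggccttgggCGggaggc
Lca5l chr16:96159195-96159494: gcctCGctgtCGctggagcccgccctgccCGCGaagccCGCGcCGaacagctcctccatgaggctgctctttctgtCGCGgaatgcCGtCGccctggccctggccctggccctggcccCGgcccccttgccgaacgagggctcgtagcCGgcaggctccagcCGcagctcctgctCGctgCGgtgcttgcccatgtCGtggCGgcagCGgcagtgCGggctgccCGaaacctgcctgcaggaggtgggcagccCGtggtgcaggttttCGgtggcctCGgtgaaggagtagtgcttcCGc
Ptk7 chr17:46628930-46628991: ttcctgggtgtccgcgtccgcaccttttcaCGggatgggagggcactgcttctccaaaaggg
Foxf2 chr13:31626627-31626688: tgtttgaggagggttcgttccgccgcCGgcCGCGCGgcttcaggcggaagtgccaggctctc
Zfp36l2 chr17:84186487-84186548: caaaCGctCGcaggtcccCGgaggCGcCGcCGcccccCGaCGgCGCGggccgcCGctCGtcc
The *Cebpb* window holds 55 member CpGs in 300 bases and lies in coding sequence. The *Neto2* window holds 31 and lies upstream of the longest coding transcript, the *Fezf1* window holds 23 and lies in and beside coding exon 1, the *Igf2bp1* window holds 27 in intron 1, and the *Lca5l* window holds 25 in coding exon 11. At *Neto2*, the CpGs at positions 85700570 and 85700576 lie 184 and 178 bases downstream of another annotated protein-coding start.

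The libraries held 46321447 to 118395064 reads over CpGs. The median coverage of a member CpG was 70 to 126 reads in mid-aged mice but 21 to 66 reads in young ones, so depth differed between the groups. Young mouse 1 was the shallowest, with a median of 21 reads. Mitochondrial CpGs, read 4735 to 14673 times in total per library, had 1.22 to 4.75% methylated reads in the mid-aged and 1.22 to 1.73% in the young libraries. Over all tested CpGs of promoters with at least 3, the mean was 1.75% for 23 hepatocyte transcription factor genes. It was 12.5% for 12 genes of liver secreted and metabolic proteins, 4.62% for 122 developmental transcription factor genes and 79% for 18 germline genes. Markers of other liver cells averaged 22.9% (stellate cells, 15 promoters), 23.4% (cholangiocytes, 12) and 35% (sinusoidal endothelium, 8). Only 3 of the 29 Kupffer cell and leukocyte genes had 3 tested CpGs, and they averaged 63.8%, with 87.2% at *Adgre1* and 13% at *Coro1a*, which had 36 tested CpGs. Since developmental factors were low as well, promoter methylation is no check of the labelled cell type here.

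The low, dense CpGs sat mostly at transcription starts, a property that the rule did not use. Of the members, 75.8% lay in a promoter (1500 bases upstream to 500 bases downstream of a start), against 36.0% of all tested CpGs, 21.9% of dense CpGs of 20 to 80% methylation and 7.78% of dense CpGs of 80% or more. The median distance to the nearest protein-coding start was 239 bases for members, 4320 bases for the dense CpGs of intermediate methylation and 12278 bases for the highly methylated ones. The last class lay in exons to 63.6%, whereas exons outside promoters held 9.58% of the members. The GC content within 200 bases averaged 69.4% for members, 65.4% for dense intermediate and 62.1% for dense highly methylated CpGs. Repeat-masked sequence held 3.41% of the members and 8.61% of the dense, highly methylated CpGs. Sparse CpGs (at most 4 others within 100 bases) under the same limit of 10% were fewer, at 20783. They lay in promoters to 36.5% and in introns to 33.2%. Their mean was 3.75 to 4.86% per mouse, against 1.41 to 1.77% for members, and 38.4% lay in CCGG, against 10.7% of the members. These shares are descriptions, since neighboring CpGs share fragments and promoters.

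Seen per gene, 9731 of the 12117 protein-coding genes with at least 3 tested promoter CpGs (80.3%) had 3 or more members there. Members also lined up along the DNA. Of 52039 stretches, runs of at least 5 tested CpGs with gaps of at most 100 bases, 13631 consisted to 80% or more of members, and these low dense stretches held 82.3% of all members. They had a median of 16 tested CpGs and 167 bases, and the longest covered 1572 bases. The 5 with the most members lay at *Cebpb* (134 members; 167688680 to 167689731 on chromosome 2), *Nkx2-4* (124), *Agap1* (120), *Fndc10* (116) and *Hnrnpu* (115). *Cebpb*, which encodes a liver-enriched leucine zipper factor, had 0.811% ± 0.0812 in mid-aged mice, against 0.831% ± 0.248 in young ones (SD, n = 4 each). *Hnrnpu*, the gene of a nuclear RNA-binding protein, was as low, at 0.937% ± 0.180 and 1.06% ± 0.388. *Nkx2-4*, a homeobox gene of the developing brain, had 4.21% ± 0.458 and 3.22% ± 0.817, and *Agap1*, the gene of an Arf GTPase-activating protein, 4.67% ± 0.447 and 3.04% ± 0.300. Only at *Agap1* among these 5 did the groups not overlap, and none of the 5 passed the test between groups (limma, lowest adjusted p = 0.233, at *Agap1*).

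Within the limit of 10% the members were spread unevenly. Their mean over the 8 mice had a median of 0.793%, and 57% of them lay under 1%. At 33398 members (10.4%) no methylated read was seen in any mouse. Those CpGs had a median of 276 reads over the 8 mice, which allows a level of up to 1.09% (3 counts of the total; counting error only, since PCR copies are not marked). At the other end 25840 members (8.04%) lay at 5 to 10%. The 3 members closest under the limit, at *Scrt2*, *Nsd1* and *Pip4k2b*, ranged from 0% to 27.5% in single mice. The 3 dense CpGs closest above it, at *Rrs1*, *Dnajc5* and *E130311K13Rik*, had 80% in young mouse 1 from 5 reads each and 0% in the other 7 mice. A single shallow value thus decided on which side of the limit these lay.

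Methylation was lowest at the start and rose on both sides. Members within 200 bases upstream of a start averaged 1.29% and those within 200 bases downstream 1.3%, against 2.40% at 1000 to 1500 bases and 2.81% at 1500 to 5000 bases downstream. It fell with density, from 2.05% at 10 to 12 neighbors to 1.34% at 21 or more. The 817 members that lay within 100 bases of a CpG of 50% methylation or more averaged 5.55%, and the 282259 that had no such CpG within 1000 bases averaged 1.52%. Members in coding exons outside promoters averaged 2.54%.

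**Figure D1:**
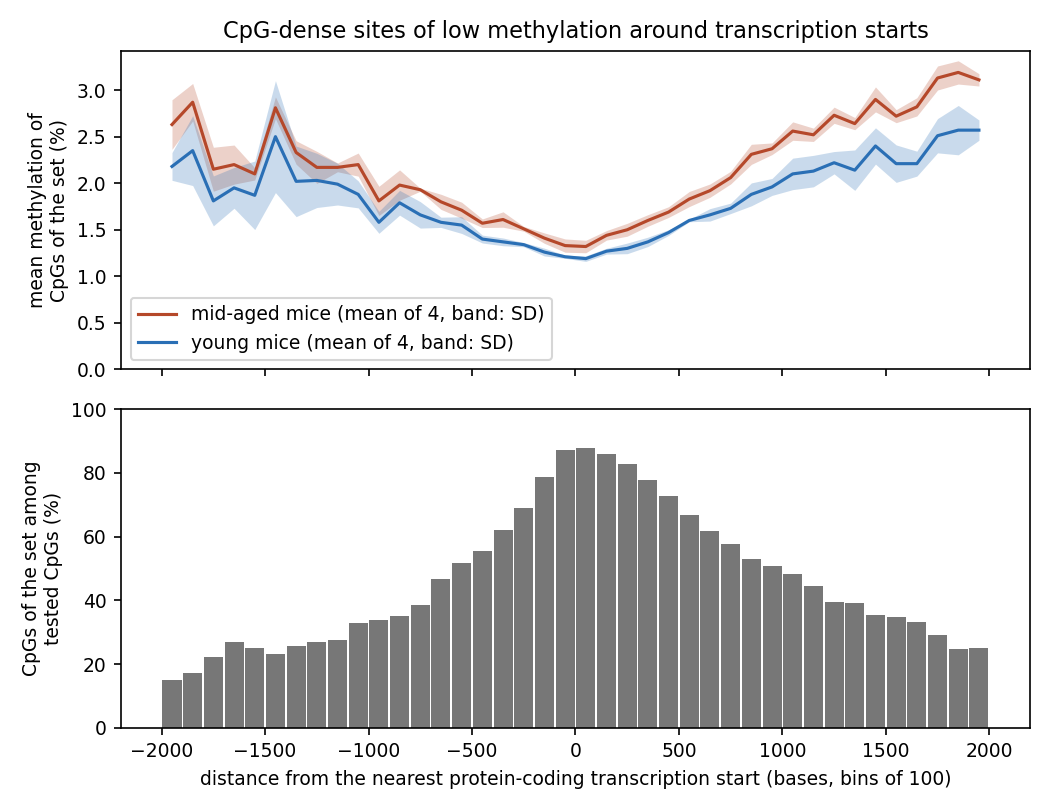
Upper panel, mean methylation (%) of the low, dense CpGs in bins of 100 bases against the distance from the nearest protein-coding transcription start, as the mean of 4 mid-aged and 4 young mice with a band of 1 SD; lower panel, the share (%) of tested CpGs in each bin that belonged to the set. The level is lowest at the start, the mid-aged line runs above the young one in every bin, and the set makes up most tested CpGs near the start.

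The level differed with the bases next to the CpG. The 34249 members inside a CCGG, the site that *Msp*I cuts, averaged 4.50%, and the 286988 others averaged 1.25%. Outside CCGG, the flanking bases gave means from 0.938% (TCGA) to 1.40% (GCGC). The 52913 members with 5 reads on each strand in every mouse averaged 1.46% on the plus and 1.47% on the minus strand. The strands correlated with r = 0.641 over these CpGs, which share libraries and are not independent, and they differed by 10 points or more at 98 CpGs (0.185%). Where the values of a CCGG come from was not tested.

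Short promoter motifs were counted, on both strands, in the 200 bases at the middle of each stretch. The GC box GGGCGG, bound by Sp factors, was present in 56.8% of the low dense stretches and in 26.4% of all 52039. The other motifs that were more frequent were the cAMP response element TGACGTCA (1.21% against 0.642%), the NRF1 core GCGCATGC (1.86% against 1.20%) and the palindrome TCTCGCGA (0.939% against 0.407%). The CCAAT box (CCAAT) was found in 13.7% against 18.4%, the TATA box (TATAAA) in 1.19% against 3.77% and the HNF1 core GTTAAT in 1.09% against 2.90%. Shares were close for the E-box CACGTG (5.27% and 5.31%), the ETS site CCGGAAG (7.46% and 7.91%) and the YY1 core AAGATGGC (2.36% and 2.39%). The low dense stretches are richer in GC, and a match is no evidence of a bound factor. They were also chosen for CpG density, and no set of equal density was compared. The motifs that were more frequent all contain a CG, and those that were less frequent contain none. Members inside a cAMP response element averaged 0.461% (193 CpGs) and those inside TCTCGCGA 0.648% (310 CpGs). Those inside the ETS site, whose first 4 bases are CCGG, averaged 4.73% (1295 CpGs).

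Every mid-aged mouse had a higher mean over the members than every young mouse, by a small amount. The mid-aged mice had 1.62%, 1.72%, 1.74% and 1.77%, and the young mice 1.41%, 1.52%, 1.5% and 1.48%. The group means were 1.71% ± 0.0624 and 1.48% ± 0.0462 (SD, n = 4 each), a difference of 0.234 percentage points. As the members were selected on these values, no test is given. With the reads summed over all members the difference was 0.180 points, and without young mouse 1 it was 0.213 points. At members with 20 or more reads in every mouse it was 0.223 points. Other classes of CpGs also separated the groups. Dense CpGs of 20 to 80% had 48 to 48.3% in mid-aged and 44.1 to 47.8% in young mice. Sparse CpGs under 10% had 4.14 to 4.86% against 3.75 to 4.11%, while dense CpGs of 80% or more overlapped. The median difference was 0.136 points for low dense stretches and 0.33 points for the other stretches. The mitochondrial level was also higher in mid-aged mice 2, 3 and 4 (2.78 to 4.75%) than in any young mouse, but not in mid-aged mouse 1 (1.22%), and its part in the result was not tested.

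**Figure D2:**
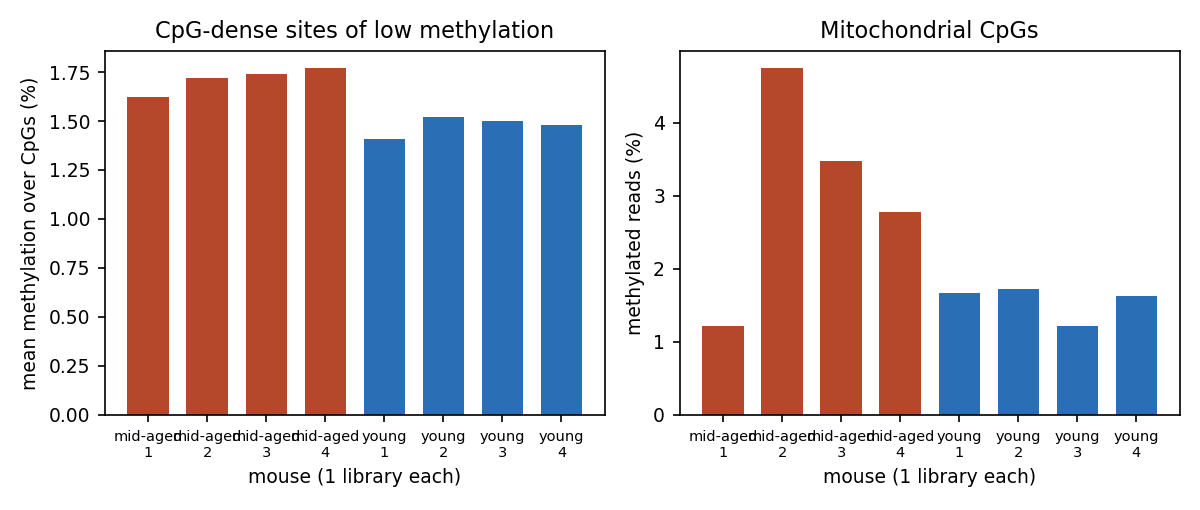
Bars give, for each of the 4 mid-aged and 4 young mice, the mean methylation (%) over the 321237 low, dense CpGs (left) and the share (%) of methylated reads over mitochondrial CpGs (right); 1 library per mouse, no error bars. On the left the mid-aged mice (1.62 to 1.77%) all lie above the young ones (1.41 to 1.52%), and on the right the groups overlap.

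The difference was not even over the members. It was 0.835 points inside CCGG (4.91% ± 0.293 against 4.08% ± 0.237, SD, n = 4 each) and 0.162 points outside (1.33% ± 0.0430 against 1.17% ± 0.0308). It was 0.129 points in the 200 bases upstream of the start, 0.659 points at 1500 to 5000 bases downstream and 0.51 points beyond 5000 bases. The groups overlapped in the bins from 500 to 1000 and from 1000 to 1500 bases upstream. In promoters as a whole it was 0.170 points and in coding exons outside them 0.552 points. Members within 100 bases of a CpG of 50% or more differed by 1.36 points, with 5.84 to 6.50% in the mid-aged and 4.14 to 5.30% in the young mice. On 18 of the 19 chromosomes the groups did not overlap, the exception being chromosome 17. Of the 13631 low dense stretches 62.3% had a higher mean in mid-aged mice, beside 59% of the other stretches, and 87.3% differed by less than 1 point in either direction.

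Counted by stretch, the groups did not overlap at 685 low dense stretches that were higher in all mid-aged mice (5.03%; 4.3% over all 52039 stretches) and at 118 that were lower (0.866%; 1.89% over all). Without young mouse 1 the counts were 1143 higher (8.39%; 7.3% over all) and 269 lower (1.97%; 3.15% over all).

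By gene, the promoters of developmental transcription factors stood highest, in both groups, among the lists with at least 8 promoters. A promoter was described by the mean of its member CpGs, where it had 3 or more, and promoters shared by a pair of genes count for both. Over all 9731 such promoters the mid-aged mean was 1.5% ± 0.0666 and the young mean 1.33% ± 0.0328 (SD, n = 4), with a median difference of 0.128 points. The groups did not overlap at 519 of them with higher values in mid-aged mice (5.33%) and at 62 with lower values (0.637%).

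For 107 developmental transcription factors the promoter mean was 3.13%, 3.32%, 3.35% and 3.29% in the mid-aged and 2.31%, 2.54%, 2.51% and 2.58% in the young mice. The groups did not overlap, and the median promoter difference was 0.653 points. The mean was higher in mid-aged mice at 94 of the 107 promoters, beside 6133 of all 9731. At 22 of them (20.6%) every mid-aged mouse lay above every young mouse, beside 5.33% of all promoters, and at 0 below. Without young mouse 1 these counts were 32 (29.9%, beside 8.2% of all promoters) and 0 (beside 1.66%). Between list means the groups were also without overlap for hepatocyte transcription factors, morphogens and their receptors, imprinted genes and all protein-coding genes. Of the 4 with the most members, *Foxf1*, a forkhead factor of mesenchyme, had 2.32% ± 0.0882 against 1.81% ± 0.221, *Tlx3*, a homeobox gene of sensory neurons, 4.17% ± 0.147 against 3.19% ± 0.435, and *Irx2*, an Iroquois homeobox gene, 2.89% ± 0.230 against 1.70% ± 0.645, each without overlap. Further ones of the 22, named after their values were seen, were *Gata3* (2.47% ± 0.619 against 0.742% ± 0.571), *Gbx2* (3.93% ± 0.329 against 2.22% ± 0.284) and the *Hox* genes *Hoxa5*, *Hoxa13*, *Hoxc4*, *Hoxd3*, *Hoxd8* and *Hoxd13*. None of the promoters of this list held a CpG that passed the test of single CpGs.

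Morphogens and their receptors, the signals that act with such factors, had 2.49% ± 0.0817 in mid-aged and 2.14% ± 0.171 in young mice over 54 promoters, and 4 of them did not overlap, all higher (*Wnt5b*, *Fgf8*, *Bmp2* and *Gli2*; 7.41%). *Wnt9a*, *Bmp7*, *Fzd7* and *Fgf4*, which had the most members, overlapped. Of 12 imprinted genes with members, *Grb10*, a growth-restraining adaptor, had 3.88% ± 0.276 against 2.67% ± 0.332 over 106 CpGs. *Igf2*, the fetal growth factor, had 3.59% ± 0.227 against 2.05% ± 0.499 over 58 CpGs. Both were without overlap (16.7% of the 12, beside 5.33% of all promoters), while *Dio3* and *Phlda2* overlapped. Over all tested promoter CpGs the imprinted genes averaged 37.3%, so that many of their CpGs lie outside the set.

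Genes that hepatocytes use had lower means. The 33 housekeeping promoters had 1.04% ± 0.0787 in mid-aged and 1.03% ± 0.223 in young mice, a difference of 0.00965 points, with a median promoter difference of 0.143 points. Only *Eef1a1*, which encodes a translation elongation factor, did not overlap (1.38% ± 0.223 against 0.777% ± 0.144), whereas *Cox4i1*, *Eif4a2* and *Eef2* did. The 21 hepatocyte transcription factors had 1.22% ± 0.109 and 0.931% ± 0.217, and only *Foxa2* did not overlap (2.47% ± 0.534 against 1.34% ± 0.201). *Cebpb*, *Hhex*, *Ppara* and *Cebpa*, which had the most members, overlapped and lay between 0.813% and 1.18% in both groups. The 27 promoters of lipid and cholesterol metabolism had 1.08% ± 0.106 and 0.980% ± 0.0918. *Me1*, the cytosolic malic enzyme that supplies NADPH, had 1.46% ± 0.146 against 0.597% ± 0.365 and did not overlap, nor did the shared promoter of *Hadha* and *Hadhb*. These 3 genes are 11.1% of the list, beside 5.33% of all promoters. *Fasn*, *Sqle* and *Elovl5* overlapped. Of the liver secreted and metabolic proteins only *Glul*, *Ass1*, *Fah* and *Pygl* had members in the promoter, and all overlapped.

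Tumour suppressor and cell cycle genes had 1.13% ± 0.108 in mid-aged and 0.969% ± 0.171 in young mice over 39 promoters. *Cdkn2a*, the locus of the p16 and p19 cell cycle inhibitors, had 2.32% ± 0.135 against 1.97% ± 0.162 and was 1 of 4 without overlap, beside *Msh6*, *Mdm2* and *Gstp1*, all higher. These 4 are 10.3% of the list, beside 5.33% of all promoters. At *Cdkn2a* the lowest mid-aged and the highest young value were both 2.18% after rounding. *Bap1*, *Socs1* and *Cdk6* overlapped. Genes of the DNA methylation and Polycomb machinery had 1.12% ± 0.0410 and 1.03% ± 0.0563 over 38 promoters. *Dnmt3b*, a de novo methyltransferase, *Kdm2a*, which binds unmethylated CpGs, and *Setd1b* were higher without overlap. *Cbx7*, a Polycomb subunit, was lower, at 0.676% ± 0.0748 against 1.78% ± 1.45. The shares of this list are 7.89% higher and 2.63% lower, beside 5.33% and 0.637% of all promoters. Without young mouse 1 the promoters of this list without overlap were 6 higher and 2 lower. They were then 4 higher (33.3%) and 0 lower of 12 imprinted, and 6 higher (11.1%) and 1 lower of 54 morphogen promoters. Tumour suppressor genes had 5 higher (12.8%) and 1 lower of 39, and lipid genes 4 (14.8%) and 0 of 27. Housekeeping genes had 2 (6.06%) and 1 of 33, and hepatocyte factors 1 (4.76%) and 1 of 21. Over all promoters the shares were 8.2% higher and 1.66% lower. Leaving out a mouse can only raise these counts, so the rise is no result about the lists. *Uhrf2*, *Bmi1*, *Ezh2* and *Ring1* overlapped, and so did all 19 circadian clock promoters (1.11% ± 0.0671 and 1.03% ± 0.172), *Nfil3*, *Tef* and *Per2* among them.

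Marker genes of other liver cells had few promoters in the set. These were 10 of stellate cells (2.81% ± 0.304 and 2.32% ± 0.303, with *Reln* higher without overlap), 8 of cholangiocytes (2.55% ± 0.481 and 2.23% ± 0.168, with *Sox9* higher), 4 of sinusoidal endothelium (2.32% ± 0.439 and 2.33% ± 1.18, with *Bmp2* higher) and 1 of leukocytes, *Coro1a*, which overlapped. *Sox9* and *Bmp2* belong to other lists too. Of germline genes only *Tdrd6* and *Dmrt1* had members, and both overlapped.

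**Figure D3:**
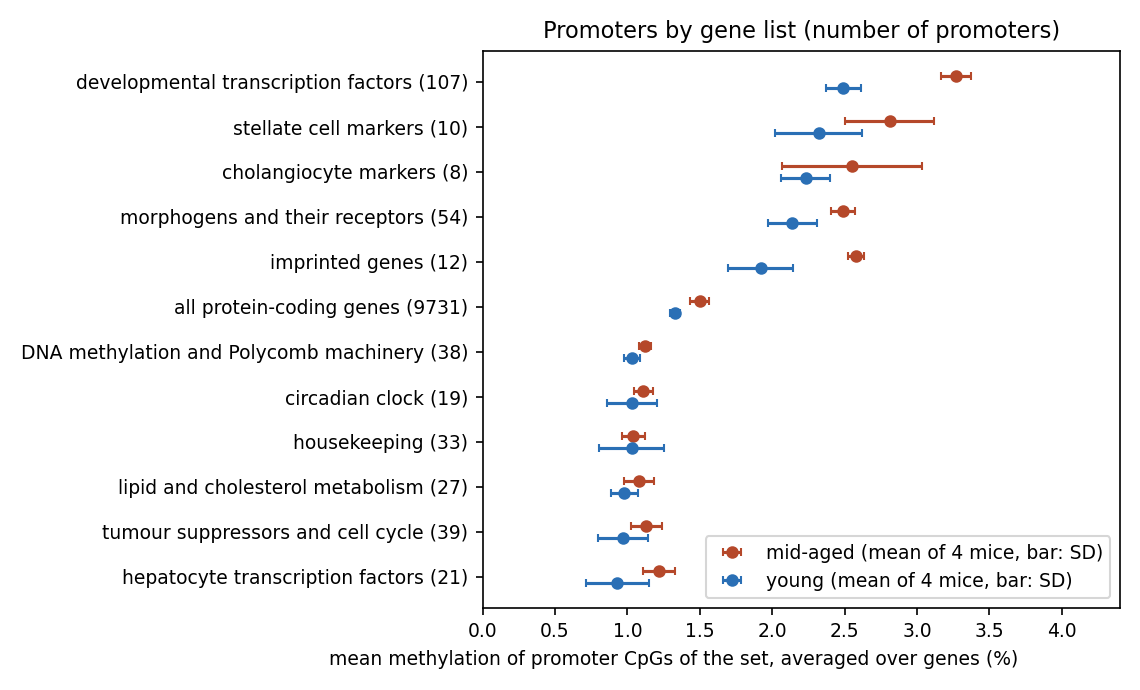
Points give the mean methylation (%) of the low, dense CpGs in the promoter, averaged over the genes of each list with 3 or more such CpGs (number in brackets, lists with at least 8 promoters), as the mean of 4 mid-aged and of 4 young mice with bars of 1 SD. Developmental transcription factors stand at 3.27% (mid-aged) and 2.49% (young), and housekeeping genes near 1% in both.

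At single CpGs, 18 members were higher and 14 were lower in mid-aged mice by the quasi-binomial test with a dispersion moderated by limma, an adjusted p under 0.05 and a difference of at least 5 points. This is 0.0056% and 0.00436% of the members, beside 0.0615% and 0.102% of all 897285 tested CpGs. The limit on the mean restricts what can be called here. All but 1 of the 18 gains were without overlap between the groups, and 5 of the 14 losses were. The count depended on single mice. Without young mouse 1 it was 39 higher and 46 lower, without young mouse 2 it was 5 and 3, without young mouse 3 it was 11 and 25, and without young mouse 4 it was 23 and 34. Leaving out mid-aged mouse 1, 2, 3 or 4 left 3 and 2, 0 and 1, 6 and 1, or 2 and 0. Limma on M values called 0 higher and 2 lower, neither of them among these 32. For these settings the share over all tested CpGs is not given, so the changes in count are no result about the members.

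The largest gain lay in intron 1 of *Ptk7*, which encodes a receptor-like pseudokinase of planar cell polarity, 544 bases downstream of the start (position 46628960 on chromosome 17). The mid-aged mice had 16.5%, 10%, 19.1% and 14.1% there, and no young mouse had a methylated read. The 127 young reads allow up to 2.36%. The adjusted p was 0.0351 (quasi-binomial test, difference 14.9 points), and it held without young mouse 1 but not without any other mouse. A second CpG of *Ptk7*, at position 46629141, was called too, with 9.56 to 13.5% against 0 to 6.17% (adjusted p = 0.0244).

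Among gains, *Rai1*, a gene of a chromatin-bound regulator of transcription, followed at position 60140148 on chromosome 11, 64 bases downstream of a start. Its mid-aged values were 7.41%, 16.4%, 7.22% and 19.1%, against 0% in all young mice (234 reads, allowing up to 1.28%; adjusted p = 0.0147). At *Catsperz*, a subunit gene of the sperm calcium channel, the CpG 676 bases upstream of the start (6926056 on chromosome 19) had 10.1 to 18.4% against 0 to 3.06% (adjusted p = 0.0236). *Kctd15*, known from neural crest development, had 10.1 to 23.1% against 1.72 to 4.88% (34653357 on chromosome 7, adjusted p = 0.0405). In coding exon 6 of *Trim14*, an adaptor of antiviral signalling, the values were 8.22 to 13.1% against 0% in every young mouse (46507425 on chromosome 4, 169 reads, up to 1.78%; adjusted p = 0.0306). These CpGs separated the groups completely.

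The other named gains were in or near genes of synapse, mesenchyme and cytoskeleton. *C1ql3*, which encodes a secreted synaptic protein, had 6.80 to 16.1% against 0 to 5.81% in coding exon 1 (13010412 on chromosome 2, adjusted p = 0.0295). *Foxf2*, a forkhead factor of mesenchyme, had 9.30%, 11.2%, 10% and 10.6% against 0%, 1.74%, 1.54% and 0% in coding exon 1 (31626657 on chromosome 13, adjusted p = 0.0477). The intergenic CpG 2291 bases upstream of *Macf1*, the gene of a linker of microtubules and actin, had 11.1 to 13.8% against 0 to 4.96% (123686651 on chromosome 4, adjusted p = 0.0243). The rest of the 18 gains lay at *Ralgds*, *Pla2g4e*, *Bicdl1*, *Gpr27*, *Ebf3*, *Ndufa13*, *Vstm4* and, with a pair of CpGs, *Neto2*, with differences of 5.02 to 7.61 points. Each of the 8 named gains lost its call when any of several mice was left out, and *Rai1* kept it most often, in 5 of 8 cases.

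The largest loss lay in coding exon 2 of *Zfp36l2*, whose product binds and destabilizes mRNAs (84186517 on chromosome 17). Mid-aged mice had 4.72%, 2.41%, 3.33% and 2.61%, and young mice 21.9%, 12.6%, 15.7% and 8% (adjusted p = 0.0278, quasi-binomial test). The CpG 5148 bases downstream of the start of *Id3*, an inhibitor of basic helix-loop-helix factors, and beyond its end, had 5.34%, 2.93%, 4.61% and 1.01% against 8.96%, 20%, 14.4% and 12.4% (136148645 on chromosome 4, adjusted p = 0.0212). *Fam208a*, a gene of the HUSH silencing complex, had 6.38 to 7.36% against 11.4 to 16% at 236 bases upstream of its start (27428598 on chromosome 14, adjusted p = 0.0477). These 3 did not overlap.

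At *Irak3*, an inhibitor of Toll-like receptor signalling, the CpG in the 5′ UTR had no methylated read in the mid-aged mice (413 reads, allowing up to 0.726%) and 4.69 to 7.69% in the young mice (120201573 on chromosome 10, adjusted p = 0.0486). *Galr3*, a galanin receptor gene, had likewise 0% in the mid-aged mice (484 reads, up to 0.620%) and 1.85 to 7.69% in the young ones (79042774 on chromosome 15, adjusted p = 0.0473). *Dmxl2* overlapped, since young mouse 3 was at 0% like all mid-aged mice while young mouse 1 had 18.2% (adjusted p = 0.0250). The other losses were 1 CpG of *Smad6* and 7 of *Brd2*, which encodes a BET family reader of acetylated histones. The 7 *Brd2* CpGs lay between 34119030 and 34119352 on chromosome 17, in a 5′ UTR exon of the longest coding transcript. Young mouse 2 had 18.4 to 36.8% at them, and no other mouse exceeded 6.00%. At the CpG of *Brd2* with at least 10 reads in each mouse and the largest difference, young mouse 2 had 24.4%, young mouse 3 5.62% and the other young mice 0% (adjusted p = 0.0309). Without young mouse 2 its adjusted p was 0.516, and the groups overlapped at each of the 7.

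**Figure D4:**
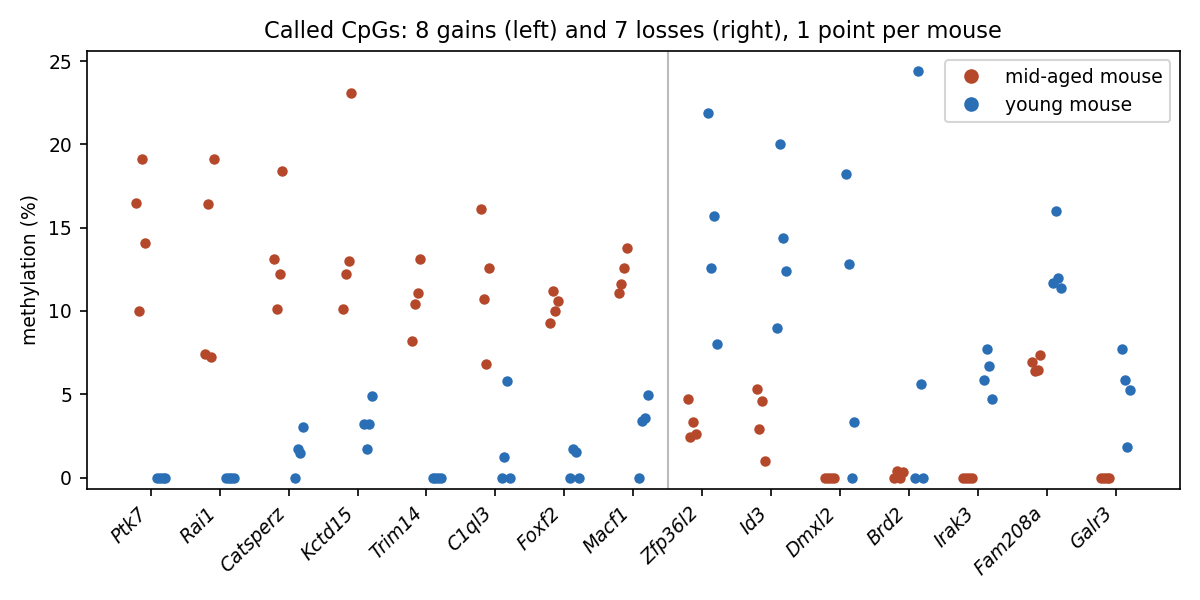
Methylation (%) in each mouse (1 point per mouse, red mid-aged, blue young) at 15 called CpGs, 8 of them the largest gains and 7 the largest losses, 1 CpG per gene on the horizontal axis. All 8 gains and 5 of the losses separate the groups, while at *Dmxl2* and *Brd2* some young mice lie at 0% with the mid-aged ones.

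Over whole stretches, 5 low dense stretches were higher and 1 was lower in mid-aged mice by limma with a trend, an adjusted p under 0.05 and a difference of at least 2 points (0.0367% and 0.00734% of the low dense stretches, beside 0.0634% and 0.0788% of all stretches). An unadjusted p under 0.05 was reached by 1063 of the 13631. Without the share over all stretches, this count is no result about the low dense ones. The calls rested on all mice. With 1 mouse left out, 0 to 2 were higher and 0 lower in every case, with 0 and 0 without mid-aged mouse 4, 2 and 0 without mid-aged mouse 1 or young mouse 1, and 1 and 0 without any other mouse. For these cases, too, the share over all stretches is not given.

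The largest gain lay in an intergenic stretch of 12 tested CpGs on chromosome 8 (20557729 to 20557785), 57135 bases upstream of *Gm21119*. Its mean was 11.5%, 10.3%, 13.7% and 11% in the mid-aged and 0%, 1.89%, 4.05% and 1.02% in the young mice (difference 9.86 points, SE 1.02, adjusted p = 0.0114). All 12 CpGs were higher in mid-aged mice, but they share reads, and the stretch was called on their mean. These 57 bases occur at 2 places in the assembled chromosomes, and they alone cannot tell the copies apart. Whether flanking bases in the reads can was not tested. It was the only one of the 6 to remain called in most cases without 1 mouse, namely in 6 of 8. On the logit scale none of the 6 remained called (limma, adjusted p = 0.107 to 0.154), and 5 other low dense stretches were called higher.

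The other gains had small SDs. In intron 1 of *Igf2bp1*, an RNA-binding protein gene of fetal tissues, 49 CpGs (96004627 to 96005267 on chromosome 11) averaged 6.56%, 6.12%, 6.10% and 5.85% in mid-aged and 3.67%, 3.2%, 2.76% and 3.41% in young mice (difference 2.89 points, SE 0.420, adjusted p = 0.0458). In coding exon 11 of *Lca5l* 33 CpGs (96159154 to 96159518 on chromosome 16) had 5.87% ± 0.240 against 3% ± 0.197 (SD, n = 4 each; limma, adjusted p = 0.0360). At *Fezf1*, a zinc finger factor of forebrain development, 41 CpGs (23247559 to 23248101 on chromosome 6) had 5.81%, 6.53%, 5.79% and 5.83% against 2.81%, 3.03%, 3.60% and 3.16% (difference 2.84 points, SE 0.417, adjusted p = 0.0488). At *Neto2*, the gene of an auxiliary protein of kainate receptors, 45 CpGs (85700342 to 85700733 on chromosome 8) had 3.87%, 4.09%, 3.80% and 3.97% against 1.83%, 1.90%, 1.73% and 1.16% (difference 2.28 points, SE 0.331, adjusted p = 0.0458). Here 38 of the 45 CpGs were higher in mid-aged mice, 33 of 41 at *Fezf1*, 34 of 49 at *Igf2bp1* and 23 of 33 at *Lca5l*. The stretches were called on the mean of these same CpGs, which share reads, so such counts lend the calls no support.

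The stretch that was lower lay in intron 1 of *Zfhx2*, a zinc finger homeobox gene, and overlapped the annotated gene *Gm20687* (5 CpGs, 55091704 to 55091781 on chromosome 14). Mid-aged mice had 0.714%, 1.09%, 0% and 1.03%, and young mice 3.08%, 3.36%, 2.77% and 3.33% (limma, difference -2.43 points, SE 0.352, adjusted p = 0.0458). At a median of 15 to 54 reads per CpG, these levels correspond to very few methylated reads. All 6 stretches separated the groups completely.

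Methylation of 1 mouse alone was found as well. At 3813 members 1 mouse exceeded the next highest by 20 points or more, and 2531 of these were in young mouse 1, the shallowest library. With at least 20 reads in that mouse 838 remained, of which 563 were in young mouse 1, 166 in young mouse 2 and 8 to 33 in each other mouse. Among low dense stretches, 32 had 1 mouse 10 points or more above the next, 15 of them young mouse 1 and 8 young mouse 2.

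The 5 most extreme stretches were each near 0 to 4% in the other 7 mice. The stretch of 13 CpGs downstream of *Zfp958*, 51813 bases from its start, had 47.4% in young mouse 1 at a median of 8 reads, and that at the start of *Igf2bp3* (5 CpGs) had 40% in the same mouse at a median of 5 reads. Deeper coverage stood behind *Brd2*, where 8 CpGs (34118991 to 34119066 on chromosome 17) had 30.6% in young mouse 2 at a median of 143 reads, beside 2.78% in the next mouse. *Magohb*, the gene of an exon junction complex protein, had 26.9% over 9 CpGs in mid-aged mouse 3 at a median of 31 reads, and *Dlc1*, which encodes a GTPase-activating protein, had 25.1% over 8 CpGs in young mouse 2 at 18 reads. None of the 5 passed the test between the groups (limma, lowest adjusted p = 0.736, at *Magohb*).

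**Figure D5:**
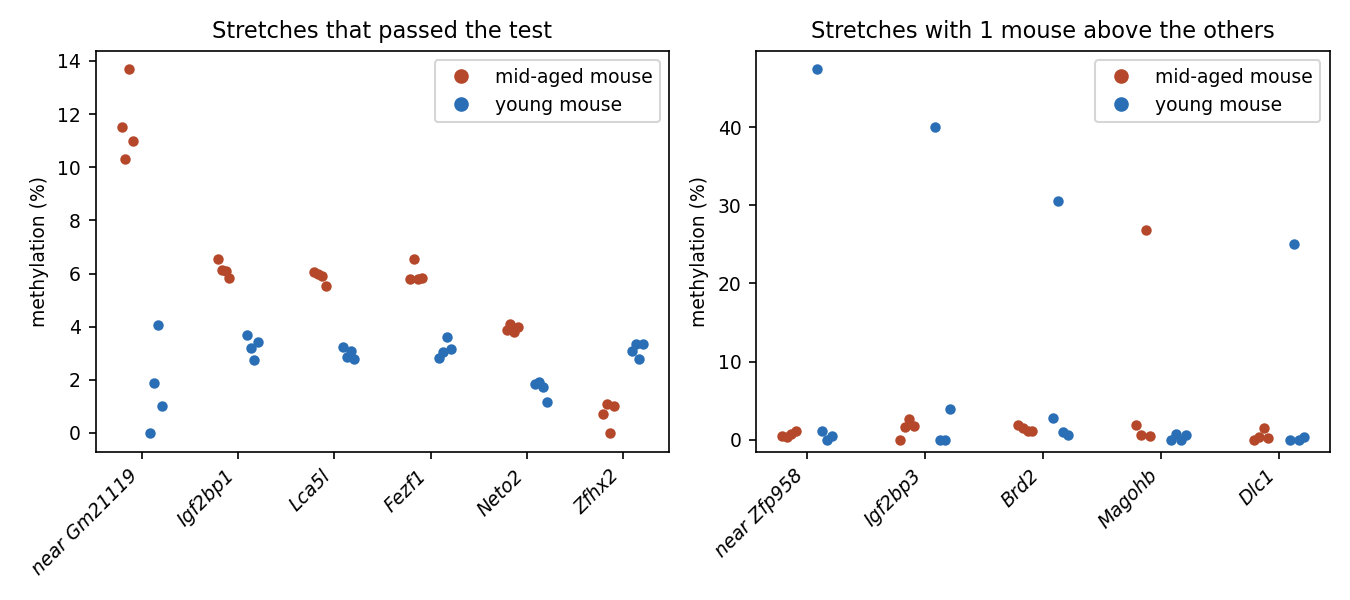
Mean methylation (%) of a stretch in each mouse (1 point per mouse, red mid-aged, blue young), for the 6 low dense stretches that passed the test (left) and the 5 in which 1 mouse most exceeded the next (right). The groups separate at all 6 on the left, and on the right a single point lies at 25.1 to 47.4% above the other 7 mice.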

How the data were processed

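Hepatocytes of 4 mid-aged and 4 young mice were profiled by RRBS, 1 library per mouse. The authors deposited, per strand of each CpG and on mm10, the coverage as a read count and the percent methylated, as output of the DEEP project pipeline without normalization. Picard 1.115, SAMtools 1.3, BWA 0.6.2, Trim Galore 0.4.2 and FastQC are named in the submitters' processing notes. For the caller of methylation, no name is given in the sources used. Methylated reads were recomputed from percent and coverage and summed over strands. Of the tested CpGs, 99.997% lay on a CG of GRCm38, and genes follow GENCODE M21, with the longest coding transcript for promoters, exons and introns.

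Single CpGs were compared by a quasi-binomial model of the reads with a dispersion moderated by limma 3.58.1 (R 4.3.3; CpGs with a dispersion of 0 left out of the moderation, floor 1), over all 897285 tested CpGs, and stretches by limma with a trend on the mean percent per mouse, both with Benjamini-Hochberg adjustment. A called CpG also had a variance of its fractions under 0.05 in both groups. All p-values are two-sided. Both tests were also run on simulated counts drawn independently at each CpG, without shared fragments, and the outcome is not given here. Other computation used Python 3.11.15, numpy 2.4.6, scipy 1.17.1 and pandas 2.3.3. Named were, by rule, the called members with the largest changes (up to 8 per direction, 1 per gene, at least 10 reads in each mouse), the called low dense stretches, the 5 with the most members and the 5 with 1 mouse highest, the CpGs nearest to the 10% limit, and the genes of 15 lists with the most members in the promoter. List promoters without overlap and called CpGs outside the rule were named after their values were seen. A few genes that the rule picks are not reported here. The members, lists and tests were chosen with earlier results of these data known. Values are given as mean ± SD over 4 mice. The groups were not sequenced to equal depth, and no batch is given in the labels.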

Additional observations from a re-analysis of the deposited data

Results flagged for a closer look

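In 9 of 68 groups of 4 mice examined, the highest or lowest mouse stood apart from the other 3 by more than 0.829 of the range of the group, where chance gives about 1 in 20. The 5 stretches chosen because 1 mouse exceeded the rest account for 5 of them, at *Zfp958* (47.4% in young mouse 1), *Igf2bp3* (40% in young mouse 1), *Brd2* (30.6% in young mouse 2), *Magohb* (26.9% in mid-aged mouse 3) and *Dlc1* (25.1% in young mouse 2). Young mouse 1 had the highest share of members without a methylated read (85.7%) and the lowest median over low dense stretches (1.03%) among the young mice, beside the lowest coverage of all libraries. The *Fam208a* CpG was highest in young mouse 2 (16%) and the *Fezf1* stretch in mid-aged mouse 2 (6.53%), each on the side away from the other group.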

How the results depend on the processing

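The higher mean of the members in mid-aged mice kept its sign in all alternatives. It was 0.218 and 0.223 points with at least 10 and 20 reads, 0.180 with summed reads, 0.237 with density from the genome sequence, 0.247 for means under 5%, 0.213 to 0.263 with 1 mouse left out, and 0.162 outside CCGG sites. The calls were less stable. Of single CpGs, 18 higher and 14 lower became 0 and 2 by limma on M values and 0 and 0 with all CpGs in the moderation. By Fisher's exact test of pooled reads, which ignores the spread between mice, they became 1127 and 948. With 1 mouse left out they ranged from 0 to 39 higher and 0 to 46 lower. Without overlap between the groups, a condition added after seeing the data, 17 and 5 remained. A minimum of 10 or 20 reads gave 20 and 15, or 27 and 20. In the main quasi-binomial test 22577 of the 321237 members had an unadjusted p under 0.05, and 18015 with all CpGs in the moderation. On M values 72768 had one (limma). There a CpG without methylated reads takes a value that varies with depth, and depth differed between the groups. Without the share over all tested CpGs these counts are no result about the members. The same holds for the counts of calls under each alternative setting in this section. Of low dense stretches, 5 higher and 1 lower became 5 and 0 on the logit scale (5 other stretches, none of the 6), 1 and 0 with gaps of at most 50 bases, 6 and 0 with at least 10 CpGs, and 0 to 2 and 0 with 1 mouse left out. With the replicate number as a block the counts were 0 and 6 CpGs (9504 at an unadjusted p under 0.05, quasi-binomial test with limma) and 0 and 0 stretches (893, limma). Over 58618 CpGs, the deviations of mice of the same number correlated only weakly (r = 0.004 to 0.011). Mice of different numbers had r = -0.015 to 0.009. These CpGs are not the set of members, so whether the numbers pair mice at the members was not tested. For the single CpGs and stretches named, the call was kept in 122 of 311 alternative settings and lost in 189. Among these, dropping the minimum difference could not end a call, and the condition of no overlap only filtered the main fit. The causes were not tested. Depth limits the set at low levels: with 21 reads, the median in young mouse 1, a single methylated read exceeds most members' level.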
